A study of Mus musculus with 24 samples.

Results

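Counts of the short non-coding RNAs 7SL, 7SK, RNase MRP RNA and RNase P RNA were examined in neonatal mouse blood and cortex. The members were the 5 genes named Rn7s1, Rn7s2, Rn7sk, Rmrp and Rpph1 in the gene table, of 48709 genes in all, and 4 of them had counts. Rn7s1 and Rn7s2 are the 2 annotated 7SL genes of the set. The set was chosen by measured values, those of the blood comparison of exposed and control neonates, in which Rn7s2 stood out. Member values in that comparison are therefore given as a description without a test.

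The study asked how prenatal exposure to nano-sized particulate matter (nPM), collected beside a freeway, altered gene expression in neonates of both sexes. Dams breathed re-aerosolised nPM or filtered air (control) for 5 hours per day on 3 days per week, from gestational day 2 until birth. Each tissue had 12 ribosome-depleted libraries from whole neonatal blood or dissected cortex, with 3 for each sex and exposure, named V1 to V24 in the labels. In the labels the strain is C57BL/6J, the age is 3 to 5 days and the concentration is 300 mg/m3. The study's methods give 300 μg/m3, collection on day 5 and C57BL/6NJ mice. Neonates came from different litters. The study describes blood and cortex as taken from the same neonates, but no label pairs a blood library with a cortex library, so the tests between tissues treated all libraries as independent. Where nothing ties libraries to separate animals, p-values measure only the spread between these libraries.

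These RNAs are made by RNA polymerase III and act with proteins. 7SL is the RNA of the signal recognition particle, which brings ribosomes that are making secreted or membrane proteins to the endoplasmic reticulum. 7SK, held by the proteins Larp7 and Mepce, keeps the elongation factor P-TEFb inactive with the help of Hexim1. RNase P RNA trims the 5′ ends of transfer RNA precursors, and RNase MRP RNA takes part in ribosomal RNA processing. The last pair share most of their protein subunits. In cell nuclei and cytoplasm of most tissues these RNAs are abundant, and being non-polyadenylated they are seen in libraries made by ribosomal depletion rather than poly(A) selection.

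The sequences bear on what the counts can show, so those of Rmrp and Rn7sk, which overlap another gene, are printed as transcripts of Gencode M21 on GRCm38 (mm10). Their lengths equal those in the deposited gene table. Capitals mark bases that another gene of the gene table also covers. Rn7s1 (chromosome 12, 69159295 to 69159594, plus strand) and Rn7s2 (chromosome 12, 69361182 to 69361481, minus strand) had the same 300 bases without a single difference. For Rn7sk (chromosome 9, 78175303 to 78175633, minus strand, 331 bases) the first 100 bases are shown. Rmrp lies on chromosome 4 from 43492788 to 43493058, minus strand.
Rmrp: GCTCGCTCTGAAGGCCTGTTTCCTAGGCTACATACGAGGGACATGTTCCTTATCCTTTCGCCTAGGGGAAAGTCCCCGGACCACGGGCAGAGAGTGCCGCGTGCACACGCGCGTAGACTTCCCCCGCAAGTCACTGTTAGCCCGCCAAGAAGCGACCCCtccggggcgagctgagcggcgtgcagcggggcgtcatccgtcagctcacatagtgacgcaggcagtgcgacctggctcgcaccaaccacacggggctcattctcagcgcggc
Rn7sk, bases 1 to 100: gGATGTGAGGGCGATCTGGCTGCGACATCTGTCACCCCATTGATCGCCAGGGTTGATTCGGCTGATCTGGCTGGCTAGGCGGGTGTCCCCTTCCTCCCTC

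In each 7SL gene, 147 of 300 bases were covered by 2 annotated miRNA genes on the same strand, and these miRNA genes had between 0 and 3 counts in every library. In Rn7sk, 328 of 331 bases were covered by an snRNA gene on the same strand, which had 0 counts in every library. In Rmrp, 159 of 271 bases were covered by Ccdc107, a protein-coding gene on the opposite strand, with 1 to 8 counts in blood and 393 to 552 in cortex outside V2. Rpph1 (chromosome 14, 50807449 to 50807767, minus strand, 319 bases) shared no base with another gene. Its nearest neighbour was Parp2 on the opposite strand, 178 bases away. Rps29 lay 108 bases from Rn7s1, and C920006O11Rik lay 280 bases from Rn7sk. Whether the libraries kept strand, and how the authors counted reads that fit 2 genes or 2 places in the genome, is not given in the sources used here.

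**Figure D1:**
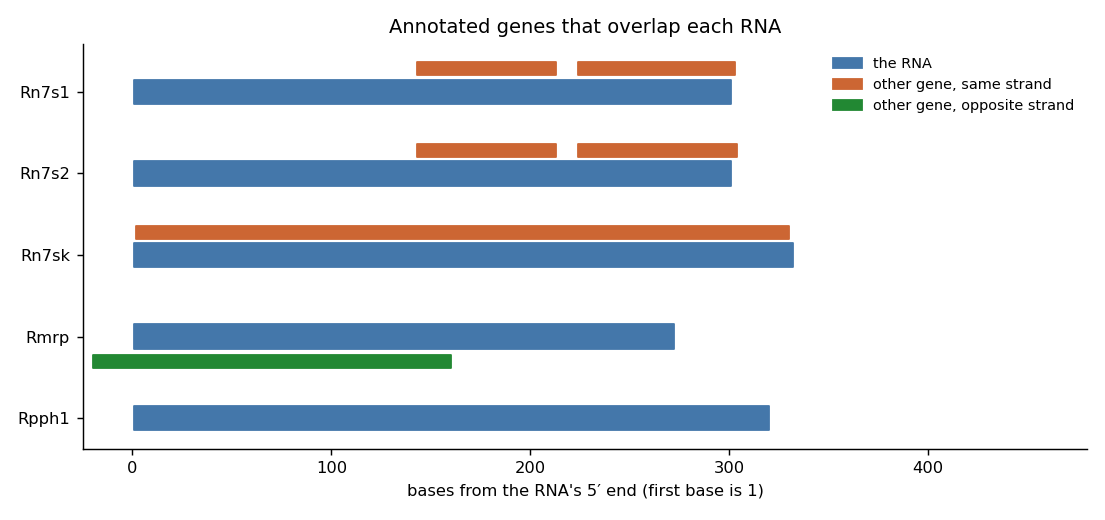
Each of the 5 RNAs (blue) is drawn to scale from its 5′ end, with bases on the horizontal axis, and genes of the gene table that overlap it are drawn beside it. Same-strand genes (orange) cover 147 bases of each 7SL gene and 328 of 331 bases of Rn7sk, Ccdc107 (green, cut at the left edge) covers 159 bases of Rmrp, and Rpph1 has no overlap.

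The libraries held 22301409 to 33804371 counts on genes in cortex and 13595647 to 21895536 in blood. Globin genes took 66.2 to 76.8% of the counts in 11 blood libraries and at most 0.0678% in cortex. V2, a blood library of a control female, stood apart, with 22461 genes detected against 13254 to 17273 in the others and 50.1% globin counts. The study left out 1 blood sample for its count distribution without naming it. V2 was left out of the blood comparisons here, and the blood exposure values with it are given beside the results. Erythroid markers summed to 695530 to 791375 CPM (counts on the gene per 1000000 counts on all genes) in the other blood libraries and 10 neuron markers to at most 35.2, in V5. V5, a male nPM library, also had the most genes detected of these, 17273. Its astrocyte and oligodendrocyte markers summed to 72.4 CPM, against at most 20.5 in control blood. The part of brain RNA in its member levels was not tested. Neuron markers summed to 6823 to 7266 CPM in nPM cortex. The smallest member count, 887 for Rmrp in V3, gave 43.7 CPM with a 95% Wilson interval of 40.9 to 46.6. Such intervals cover counting error only.

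Rn7sk was listed at 0 counts in each of the 24 libraries, both sexes, exposures and tissues included. A count of 0 allows up to 3 counts, or 0.0887 to 0.221 CPM by library. The overlapping snRNA gene was also at 0, so no count stood for 7SK RNA under either name. The 0 is therefore a property of these counts at a locus that carries 2 gene names, and gives no level of 7SK RNA. Rn7sk entered no test, and its planned ratios to Rn7s2 and to Rmrp could not be formed.

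7SL was the most abundant member in blood, whereas Rpph1 led in cortex. Per kilobase of the whole gene, the 7SL copies together had a median of 45297 RPKM in blood (range 16781 to 87571, n = 11). Rpph1 followed with 3078 RPKM (2060 to 3974) and Rmrp with 422 RPKM (161 to 718), and none of these ranges overlapped. In cortex Rpph1 had a median of 18401 RPKM (17372 to 25058, n = 12), 7SL had 12753 RPKM (9752 to 23876) and Rmrp had 7033 RPKM (6440 to 8545). The ranges of Rpph1 and 7SL overlapped there. When only bases free of other genes were counted as length, 7SL had 25005 RPKM in cortex, above the 18401 of Rpph1, and Rmrp had 17018, so the cortex order of 7SL and Rpph1 depended on the length used. The 7SL copies together took 0.503 to 2.63% of all gene counts in blood and 0.293 to 0.716% in cortex.

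**Figure D2:**
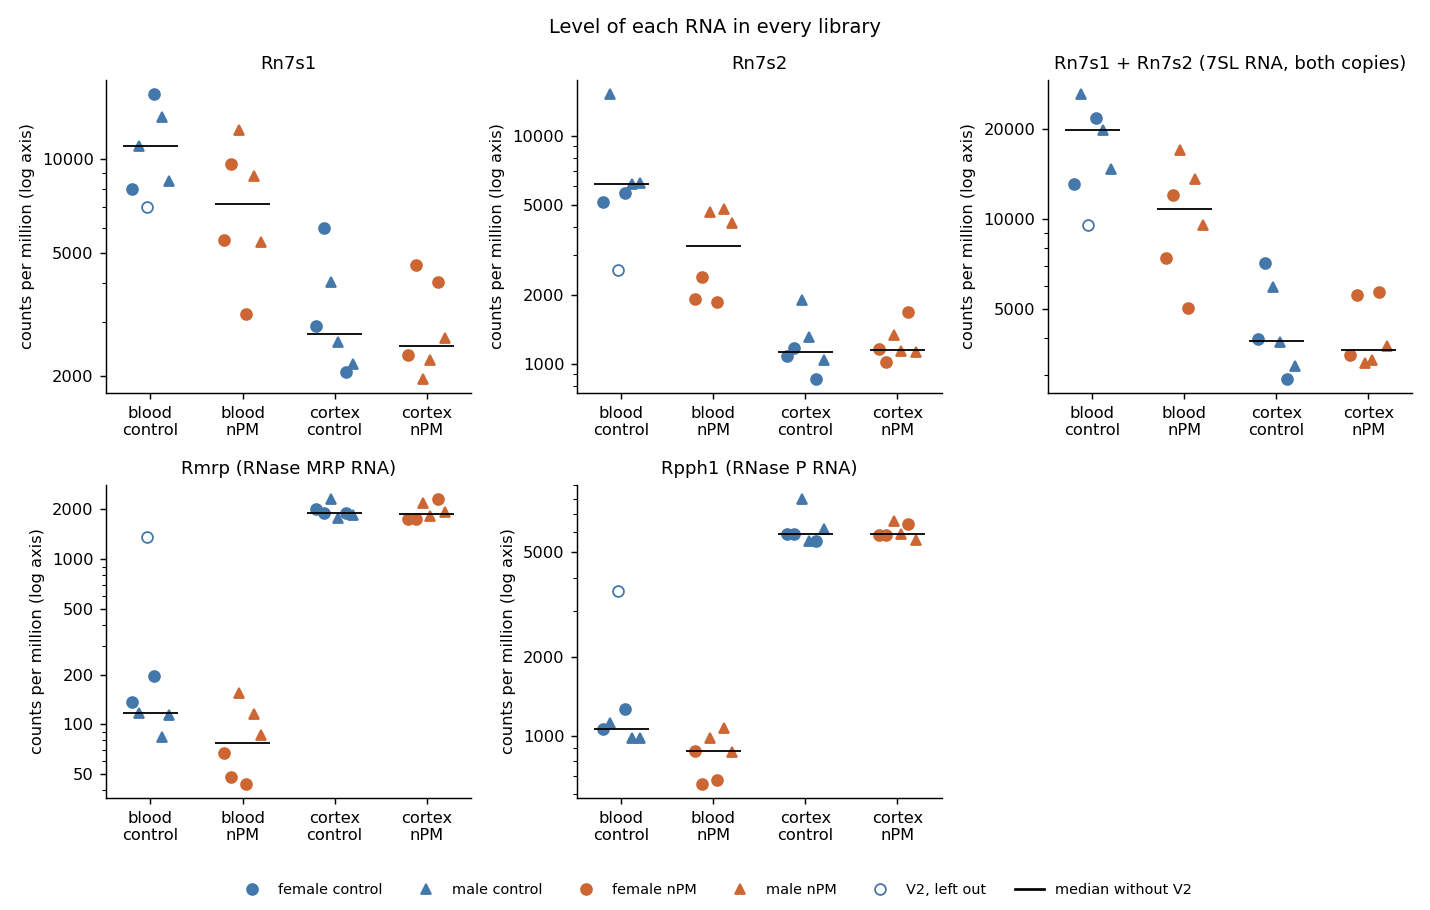
CPM (log axes) of each counted RNA and of the 7SL copies summed, with 1 point per library by tissue and exposure (circles females, triangles males) and a bar at the median without V2. Rn7s2 in the 6 nPM blood libraries lies at 1862 to 4767 CPM, below the 5147 to 15291 of the 5 control libraries, whereas cortex groups overlap in every panel. The open circle is V2, at 1363 CPM of Rmrp and 3564 CPM of Rpph1.

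Although the 7SL genes have identical sequences, their counts did not keep a fixed proportion. Rn7s1 had 0.718 times the counts of Rn7s2 in V22, a male control, and 4.0 times in V1, a female nPM library, a 5.58-fold spread over 11 blood libraries with a median of 1.85. In cortex the ratio ran from 1.47 in V13 to 5.13 in V12, a 3.49-fold spread with a median of 2.24. Rn7s1 had more counts than Rn7s2 in 12 of 12 cortex and 10 of 11 blood libraries. For comparison, the ratio of Rmrp to Rpph1, which are different RNAs, spread by 1.26-fold in cortex and 2.43-fold in blood. In cortex the Rn7s1 to Rn7s2 ratio had a median of 2.20 in nPM and 2.26 in control libraries, a difference of -0.16 on the log2 scale (exact permutation test, two-sided, p = 0.558, adjusted over 12 ratio tests 0.838). In blood the medians were 2.26 in nPM and 1.55 in control libraries, and the groups overlapped. Only bases beyond the gene could tell reads of the copies apart, so the split between Rn7s1 and Rn7s2 is uncertain, and their summed counts are given beside each copy. The only other gene of the count table with at least 90% identity over at least 90% of the length was Gm24105, at 91.7%, with at most 1 count in a library.

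**Figure D3:**
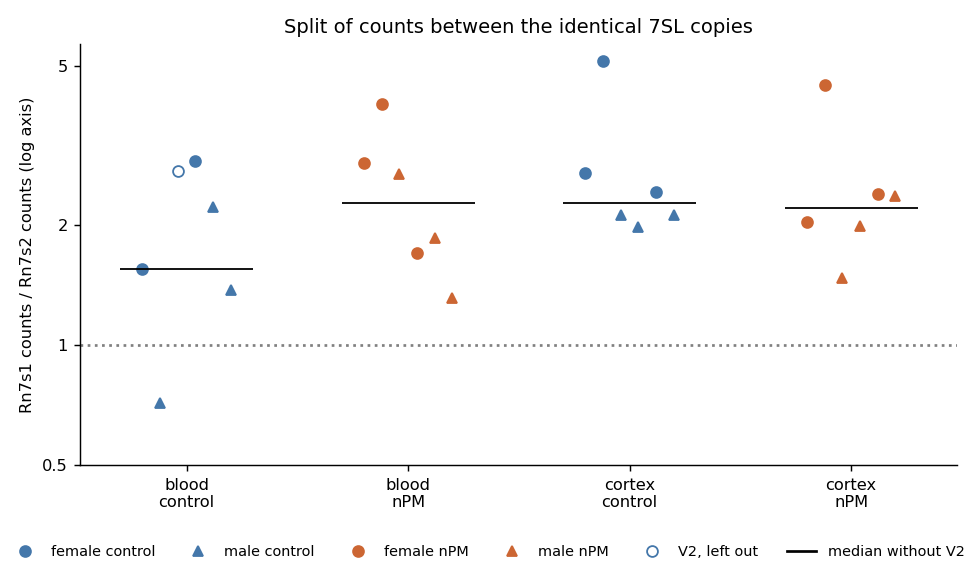
The count of Rn7s1 divided by that of Rn7s2 (log axis) in every library, by tissue and exposure, with a bar at the median without V2. The dotted line at 1 marks equal counts. The points run from 0.718 in a male control blood library to 5.13 in a female control cortex library.

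In blood, all 4 counted members were lower on average in nPM than in control neonates, and Rn7s2 had the largest difference. Rn7s2 had 5147, 5635, 6184, 6236 and 15291 CPM in the 5 control libraries and 1862, 1919, 2405, 4156, 4655 and 4767 CPM in the 6 nPM libraries. The groups did not overlap, as for 0.241% of the 9977 genes tested in blood in either direction and 0.0501% in the lower direction. In fits adjusted for sex and RNA integrity number (RIN), the log2 fold change of Rn7s2, nPM minus control, was -1.23 ± 0.24 (SE, edgeR, n = 6 and 5). It was -0.96 ± 0.65 with V2 included, which had 2575 CPM and lay among the nPM libraries. V22, at 15291 CPM, was far above the other controls, and without it the log2 fold change was -1.05. This comparison led to the choice of the set, so nothing is supported by these values.

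Summing the copies changed that picture. The 7SL copies together had 13141, 14751, 19869, 21834 and 26271 CPM in control blood and 5034, 7396, 9583, 12035, 13589 and 17085 CPM in nPM blood. The groups overlapped, with 2 nPM libraries (V5 and V21, both males) above the lowest control. The mean was 10787 ± 4361 CPM in nPM and 19173 ± 5336 in control libraries (SD, n = 6 and 5), 0.563 of the control mean. The log2 fold change of the sum was -0.85 ± 0.26 (SE), between the -0.63 ± 0.29 of Rn7s1 and the -1.23 ± 0.24 of Rn7s2, and -0.60 ± 0.71 with V2. Rn7s1 alone had 7994 to 16199 CPM in control and 3173 to 12429 CPM in nPM libraries, and 3 of 6 nPM libraries fell below every control. With V2 the log2 fold change of Rn7s1 was -0.40 ± 0.69.

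Rmrp, the RNA of RNase MRP, had 84.0, 114, 117, 137 and 195 CPM in control blood and 43.7, 48.1, 67.2, 86.2, 115 and 154 CPM in nPM blood. The 3 lowest were the 3 nPM females, and the nPM males lay within the control range. Its log2 fold change was -0.77 ± 0.24 (SE), and -0.88 ± 0.34 with V2. Rpph1, the RNA of RNase P, had 981, 985, 1060, 1116 and 1268 CPM in control blood and 657, 677, 870, 876, 982 and 1075 CPM in nPM blood. The groups overlapped, and its log2 fold change was -0.43 ± 0.21, and -0.29 ± 0.40 with V2. Within sequencing lanes, the difference of mean log2 CPM had the same direction for each member. It was -0.97 in lane 1 and -1.57 in lane 3 for Rn7s2, -0.87 and -0.32 for Rmrp, and -0.41 and -0.23 for Rpph1. For Rn7s1 it was -1.0 and -0.18. RIN ran from 7.5 to 9.3 in control and 7.6 to 9.0 in nPM blood, globin counts from 71.3 to 76.8% and 66.2 to 75.6%, and platelet markers had a median of 251 and 369 CPM. Lower in nPM were 9 of 9 tested B cell markers (median log2 fold change -0.30) and 8 of 9 T and NK cell markers (-0.54), while 10 of 10 platelet markers were higher (0.20). Of erythroid markers 4 were higher and 5 lower (-0.03), and of neutrophil markers 5 and 4 (0.05). The part of these in the member differences was not tested. In bulk blood, fewer cells of a type and less RNA per cell cannot be told apart.

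By sex, Rn7s2 in female blood had 5147 and 5635 CPM in 2 controls and 1862, 1919 and 2405 CPM in nPM libraries. In male blood it had 6184, 6236 and 15291 CPM in controls and 4156, 4655 and 4767 CPM in nPM libraries. The log2 fold changes of -1.25 ± 0.50 in females and -1.28 ± 0.36 in males (SE) are a description, as for both sexes together. Rmrp had the largest sex contrast in the exposure effect in blood, at -1.40 ± 0.37 in females and -0.24 ± 0.27 in males. The difference of 1.26 ± 0.41 (male minus female, interaction) did not pass (unadjusted p = 0.00628, edgeR adjusted p = 0.452). For Rn7s1 the interaction was 0.74 ± 0.59 (edgeR adjusted p = 0.621) and for Rpph1 0.11 ± 0.43 (edgeR adjusted p = 0.936). None of these 3 members passed an adjusted p of 0.05 in the blood interaction by edgeR or limma voom, and Rmrp was under an unadjusted 0.05 by each. Of all 9977 genes, 0% passed the interaction test by edgeR and 10.7% were under an unadjusted 0.05.

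In cortex, no member passed the test between nPM and control neonates. Rn7s2 had 859 to 1896 CPM (median 1123) in control and 1021 to 1685 CPM (median 1145) in nPM libraries, 6 of each, and the ranges overlapped, as for every member in cortex (0.245% of all genes tested there had groups that did not overlap). Its log2 fold change was 0.01 ± 0.15 (SE, edgeR adjusted p = 0.995). Rn7s1 had 2067 to 5994 CPM (median 2737) in control and 1964 to 4558 CPM (median 2500) in nPM libraries, with a log2 fold change of -0.18 ± 0.23 (edgeR adjusted p = 0.925). Its highest libraries were V12, a female control at 5994 CPM, and V11, a female nPM library at 4558 CPM. For Rn7s2, V12 was near the control median at 1169 CPM, whereas V11 was the lowest nPM library at 1021 CPM. With the copies summed the log2 fold change was -0.13 ± 0.20 (edgeR adjusted p = 0.940).

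Rmrp and Rpph1 were the steadiest members in cortex. Rmrp had 1957 ± 187 CPM in control and 1961 ± 239 CPM in nPM libraries (SD, n = 6 each), with a log2 fold change of -0.02 ± 0.07 (SE, edgeR adjusted p = 0.982). Rpph1 had 6162 ± 925 and 6018 ± 385 CPM, with -0.04 ± 0.08 (edgeR adjusted p = 0.953). Exact permutation tests of mean log2 CPM gave two-sided p-values of 0.714 for Rn7s1, 0.812 for Rn7s2, 0.998 for Rmrp and 0.853 for Rpph1 (n = 6 and 6). Thus 0 of 4 members passed an adjusted p of 0.05, and 0 were under an unadjusted 0.05, by edgeR, limma voom or DESeq2. Of all 20857 genes in cortex, 0.0144% passed by edgeR and 5.67% were under an unadjusted 0.05. Within lane 2 the Rn7s1 difference of mean log2 CPM was -0.48 and within lane 3 it was 0.62, and for Rn7s2 it was -0.20 and 0.54, so the direction differed between lanes.

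**Figure D4:**
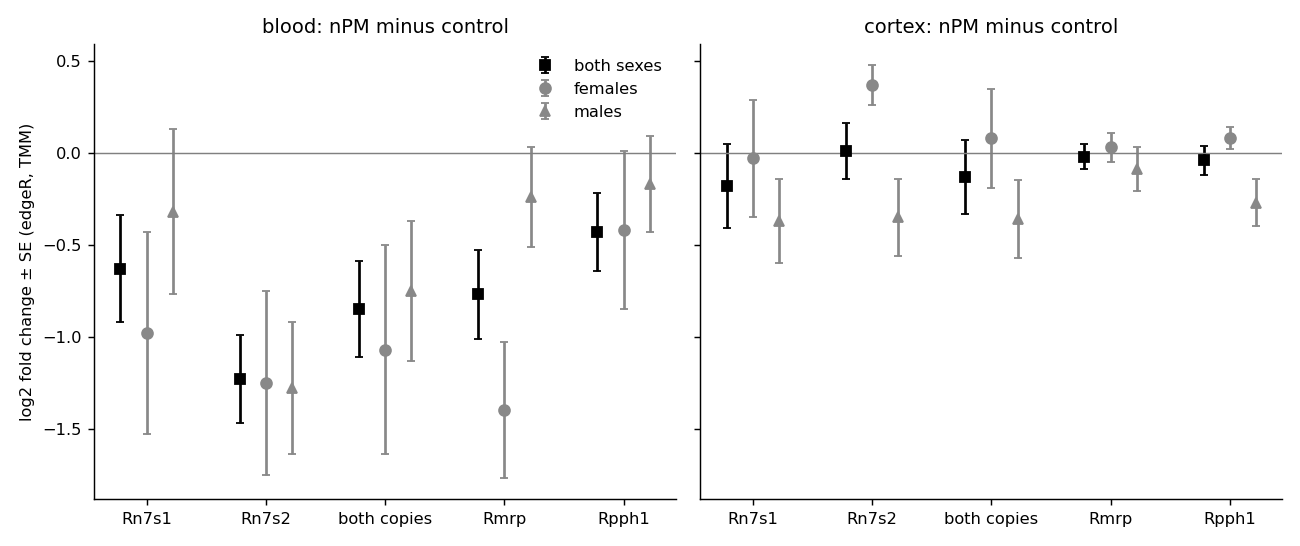
Log2 fold changes of nPM minus control with standard errors, in blood (left) and cortex (right), for both sexes together (squares) and for females and males alone. In blood every estimate is below 0, from -1.40 for Rmrp in females to -0.17 for Rpph1 in males, and in cortex the estimates for both sexes lie between -0.18 and 0.01.

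In the cortex of females alone, Rn7s2 had an unadjusted p under 0.05. In females it had 859, 1077 and 1169 CPM in controls and 1021, 1155 and 1685 CPM in nPM libraries, with a log2 fold change of 0.37 ± 0.11 (SE, edgeR adjusted p = 0.144). In males it had 1036, 1305 and 1896 CPM in controls and 1123, 1135 and 1337 CPM in nPM libraries, with -0.35 ± 0.21 (edgeR adjusted p = 0.962), beside -0.37 ± 0.23 for Rn7s1. The Rn7s2 groups overlapped in both sexes. The interaction, male minus female, was -0.74 ± 0.26 and did not pass (unadjusted p = 0.0121, edgeR adjusted p = 0.403). Among genes counted in every library fitted, no member passed in females or males, where 1.11% of 21731 genes and 0% did. None passed in the interaction, where 0% of genes did. With another gene filter the interaction passed for some members, as given in the closing section. Unadjusted p-values under 0.05 were seen for 1 member in females, 0 in males and 1 in the interaction by edgeR, and for 2, 1 and 1 by limma voom. Over all genes by edgeR, 15.4% in females, 4.51% in males and 9.68% in the interaction were under it. Under 0.005 in females were 0 members by edgeR and 1 by limma voom, where 262 of 21731 genes were higher and 584 lower under 0.005.

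Among genes counted in every library fitted, sex and RNA integrity gave no difference that passed for any member. With another gene filter the cortex sex difference passed for Rn7s1, as given in the closing section. In blood Rn7s2 was 0.94 ± 0.32 (SE) higher in males on the log2 scale, given as a description. Its blood sex and RIN values use the libraries and spread of the comparison that led to the set, so they support nothing. Rmrp was 0.66 ± 0.31 higher in males (unadjusted p = 0.0437, edgeR adjusted p = 0.999). In cortex the male minus female difference was -0.39 ± 0.26 for Rn7s1 (edgeR adjusted p = 0.820) and between -0.03 and 0.09 for the others. Under an unadjusted 0.05 in cortex were 0 of 4 members by edgeR, limma voom or DESeq2. Of all genes, 0% in blood and 0.0336% in cortex passed, and 4.53% and 6.09% were under an unadjusted 0.05 by edgeR. Slopes against RIN had edgeR adjusted p-values from 0.940 to 0.996 in blood and 0.973 to 0.978 in cortex, where 0% of genes passed in either tissue. Under an unadjusted 0.05 were 0 members by edgeR in both tissues, and by limma voom 0 in blood and 1 in cortex, against 4.62% of genes in blood and 4.18% in cortex by edgeR. Per RIN unit, the steepest were Rn7s1 at 0.53 ± 0.30 and Rmrp at -0.52 ± 0.28 in blood and Rn7s2 at -0.70 ± 0.54 in cortex on the log2 scale.

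Blood and cortex differed in the balance of these RNAs to each other, a measure that needs no scaling between libraries. RIN was 9.4 to 9.9 in cortex and 7.5 to 9.3 in blood without V2. Cortex libraries ran in lanes 2 and 3 and blood libraries in lanes 1 and 3. In every comparison between tissues here, tissue and RIN therefore cannot be told apart. The ratio of Rmrp to Rpph1 counts was 0.288 to 0.345 in control cortex and 0.0853 to 0.153 in control blood, without overlap. The difference of mean log2 ratio was 1.46 (exact permutation test, two-sided, p = 0.00433, adjusted over 12 ratio tests 0.00866, n = 6 and 5). In nPM libraries the ratio was 0.300 to 0.362 in cortex and 0.0645 to 0.157 in blood, a difference of 1.82 (exact permutation p = 0.00216, adjusted 0.00866, n = 6 and 6). The ratio of 7SL, both copies, to Rpph1 was 0.526 to 1.22 in control cortex and 12.4 to 23.5 in control blood, a log2 difference of -4.62. It was 0.501 to 0.955 and 7.44 to 18.3 in nPM libraries, a log2 difference of -4.12. Both had the same p-values as above, the smallest that permutation of these libraries allows. The tissue ratios were chosen after the data were seen, and ranges without overlap fix these p-values at that minimum. They therefore add nothing to the ranges. The ratio of 7SL to Rmrp had a median of 2.09 in control cortex and 129 in control blood. Within cortex, none of these ratios passed the test between nPM and control libraries (exact permutation, p from 0.690 to 0.872, adjusted p = 0.898).

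**Figure D5:**
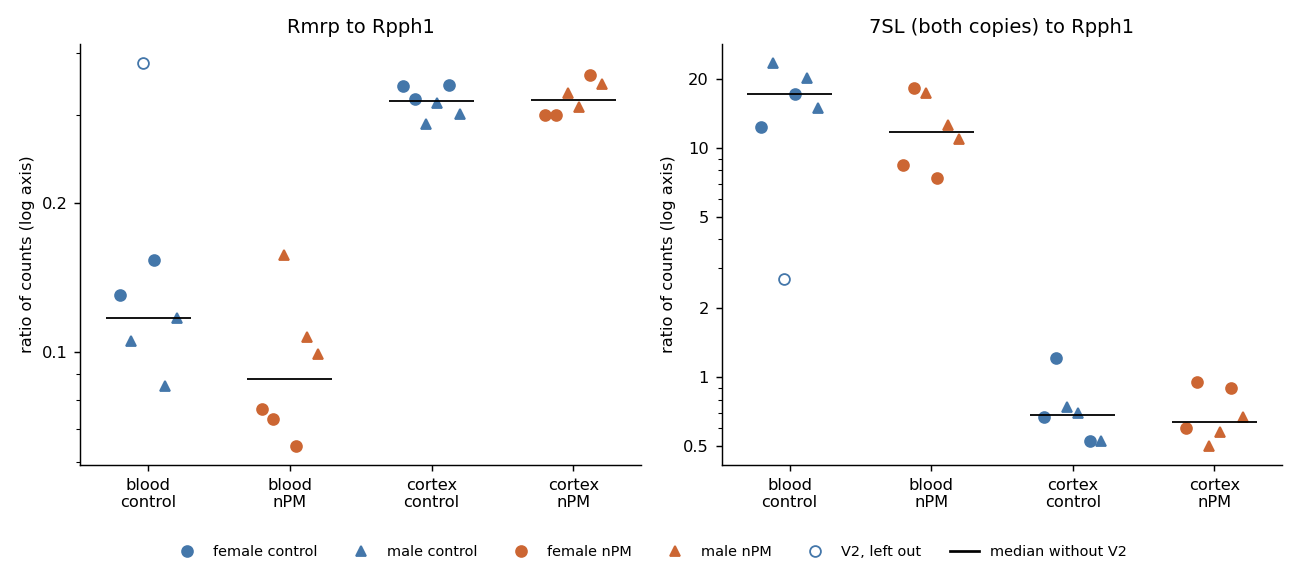
Ratios of counts within each library (log axes), Rmrp to Rpph1 on the left and 7SL (both copies) to Rpph1 on the right, by tissue and exposure, with bars at the median without V2. Cortex libraries lie at 0.288 to 0.362 and blood libraries at 0.0645 to 0.157 on the left, and at 0.501 to 1.22 and 7.44 to 23.5 on the right. The open circle, V2, lies at 0.382 and 2.69.

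As shares of all counts, 7SL was lower and Rmrp and Rpph1 were higher in cortex. Rmrp had 1957 ± 187 CPM in control cortex and 129 ± 41.1 CPM in control blood (SD, n = 6 and 5), and Rpph1 had 6162 ± 925 and 1082 ± 118. Summed 7SL had 4515 ± 1664 and 19173 ± 5336 CPM. On library totals alone the log2 differences, cortex minus blood control, were 3.92 for Rmrp, 2.51 for Rpph1 and -2.08 for summed 7SL. With TMM scaling, which takes most genes as the reference, they were -0.20 ± 0.14 (edgeR adjusted p = 0.172), -1.64 ± 0.14 (edgeR adjusted p = 1.50e-08) and -6.20 ± 0.29 (edgeR adjusted p = 3.49e-12). The median log2 difference of all genes was 0.24 with TMM and 4.35 with library totals, so the direction for Rmrp and Rpph1 depended on the scaling and that for 7SL did not. Of the 4 members, 3 passed with TMM, where 86.2% of all genes did. In nPM libraries 4 of 4 passed, against 86.6% of genes, and Rmrp was 0.49 ± 0.20 higher in cortex (edgeR adjusted p = 0.0342). That call was lost with DESeq2 or RLE scaling (0.26 each), with genes kept at 1 count in any library (0.20) and without any 1 of 7 of the 12 libraries, and the direction turned with filterByExpr (-0.06).

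The protein partners of these RNAs, the RNA polymerase III machinery and its other transcripts were counted from gene lists written for the purpose. In cortex, 83 of 85 such genes in the table were tested between nPM and control, and 0 passed an adjusted p of 0.05 by edgeR, limma voom or DESeq2. By each tool 2 were under an unadjusted 0.05, or 2.41%, against 5.67% of all genes by edgeR. These were Larp7, the 7SK-binding protein, at 17.1 ± 1.76 CPM in control and 18.9 ± 0.905 in nPM cortex, and Rpp25, a subunit of RNase P and MRP, at 5.81 ± 0.760 and 7.02 ± 1.46 (SD, n = 6 each). Their log2 fold changes were 0.15 ± 0.07 and 0.26 ± 0.11 (SE, edgeR adjusted p = 0.862 for each). In 3 of the other lists, the gene with the smallest p was Srpr, a subunit of the signal recognition particle receptor (-0.07 ± 0.04), Snapc1 of the snRNA promoter-binding complex (0.08 ± 0.05) and Exosc2 of the exosome (0.11 ± 0.06). For the other transcripts of RNA polymerase III it was the Y RNA Rny1 (-0.26 ± 0.22), with edgeR adjusted p-values from 0.872 to 0.886 over these 4. List medians lay between -0.03 and 0.07 for the 6 protein lists, beside 0.00 for all genes.

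In blood, given as a description, the same lists showed small shifts. Median log2 fold changes were -0.04 for the signal recognition particle (8 genes tested), -0.04 for the 7SK particle (12), 0.09 for RNase P and MRP proteins (5) and -0.08 for RNA polymerase III (13), beside 0.00 for all genes. Mepce, the 7SK capping enzyme, was at -0.67 ± 0.27 (SE), with a mean of 1.69 CPM in control and 1.08 in nPM blood. Polr3a, the largest RNA polymerase III subunit, was at -0.94 ± 0.37, with 1.23 and 0.684 CPM. Both were chosen after their values were seen. Of the 7SK particle list 6 genes were higher and 6 lower, and of the RNA polymerase III list 6 and 7. Rny1 was at -0.54 ± 0.27 and Rny3 at -0.55 ± 0.42, the only genes tested in blood from the list of other RNA polymerase III transcripts. Of the short RNA classes, only 11 of 1383 snRNA, 6 of 51 scaRNA, 22 of 1508 snoRNA and 10 of 560 other misc_RNA genes were tested in blood. The values of these tested genes are a description of the same comparison. Lower in nPM were 10 of 11 snRNA genes (median -0.83), 6 of 6 scaRNA genes (-0.34), 16 of 22 snoRNA genes (-0.29) and 9 of 10 other misc_RNA genes (-0.43), against 4943 of all 9973 other genes. In cortex 64 of 98 tested snRNA genes (median -0.11), 143 of 216 snoRNA (-0.14), 29 of 45 other misc_RNA (-0.16) and 10 of 16 scaRNA genes (-0.03) were lower. Of all 20853 other genes 10657 were lower, and 0 genes of these classes passed an adjusted p of 0.05 by edgeR. Under an unadjusted 0.05 were 6, 12, 7 and 1 genes of these classes, in that order, against 5.67% of all genes. Under 0.005 were the snRNA gene Gm25411 and the misc_RNA gene Gm25271, both lower, against 0.614% of all genes. These classes hold many near-identical copies whose counts are uncertain. What set the direction was not tested.

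Between tissues, the 7 tested protein genes of RNase P and MRP were all higher in control cortex with TMM scaling and passed, with a median log2 difference of 1.40 beside 0.24 for all genes. Of the 8 tested genes of the signal recognition particle and its receptor, 4 were higher and 2 lower past an adjusted p of 0.05 (median 0.39, edgeR). For RNA polymerase III subunits 10 of 13 were higher and 3 lower (median 0.82). Of all 10271 other genes, 4806 were higher and 4052 lower past that threshold. As with the members, these differences are relative to the scaling, and tissue and RIN cannot be told apart in them.

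Profiles across libraries were compared by the root mean square difference of centred log2 CPM, as a description, among genes with at least 10 counts in every library of a tissue. In cortex (12 libraries) Rmrp and Rpph1 were among each other's nearest of 16659 genes, at ranks 9 and 12, with a difference of 0.10 against medians of 0.20 and 0.19 over all genes. By mean absolute difference the ranks of this pair were 145 and 28. The nearest were Rps10, Fam229b and Stk19 to Rmrp (0.09 each) and Trpt1 (0.07), Ndufa6 and Hebp1 (0.09 each) to Rpph1. Rn7s1 ranked 14558 of 16659 by likeness to Rn7s2, and Rn7s2 ranked 2720 by likeness to Rn7s1, although the sequences are identical. By mean absolute difference these ranks were 13588 and 163. Closest to Rn7s2 were Gm8775 (0.17), Hpse and the scaRNA Gm25395 (0.19 each), and to Rn7s1 Baiap2l2 (0.28), Mtag2 and 5930409G06Rik (0.33 each).

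In blood (11 libraries) Rn7s1 was at rank 69 of 5547 from Rn7s2 and Rn7s2 at rank 1831 from Rn7s1, at 0.66, or at ranks 106 and 2339 by mean absolute difference. Closest to Rn7s2 were Irf1 (0.44), Gbp4 (0.48) and Mepce (0.50), and to Rn7s1 Cd2 (0.25), Cd79b (0.28) and Ist1 (0.32). Irf1 and Gbp4 are interferon-induced genes, Cd2 is a T cell surface protein and Cd79b is part of the B cell receptor. B cell markers summed to 51.1 CPM at the median in control and 53.5 in nPM blood, and T and NK cell markers to 12.4 and 10.8, beside the lower fold changes of most of these markers given above. Their part in these likenesses was not tested. Closest to Rmrp were Sharpin (0.24), Naa25 and Neurl3 (0.26 each), and to Rpph1 Arfgef2 (0.14), St5 (0.15) and Katnal1 (0.16). Rpph1 was at rank 46 from Rmrp and Rmrp at rank 1696 from Rpph1, at 0.40. By mean absolute difference these were ranks 74 and 2010. These points share library depth and the large globin share of blood.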

How the data were processed

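RNA-seq counts came from 24 libraries of neonatal mouse blood and cortex. The authors checked reads with FastQC, trimmed them with Trimmomatic, aligned them to mm10 (GRCm38) with HISAT2 and counted them per gene with featureCounts 1.5.0-p3. Their deposited table holds raw counts. Their gene table gives coordinates, gene types, lengths and mean RPKM values that the authors computed. Those means were not used, and RPKM values in the text were computed from the deposited counts. Multi-mapping and strand settings are not given in the sources used here.

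The members and gene lists were chosen with earlier results of these data known. CPM was scaled to 1000000 counts on genes. Comparisons used edgeR 4.0.16 (quasi-likelihood F test, two-sided, TMM) in R 4.3.3 on genes counted at least 1 time in each library fitted. Covariates were sex and RIN for exposure, RIN within a sex, and sex between tissues. P-values were adjusted over all genes tested by Benjamini-Hochberg, with cutoffs of 0.05 adjusted and 0.005 unadjusted. Ratios took log2 after adding 0.5 counts and were compared by exact permutation (scipy 1.17.1). Copies were sought with BLAST 2.17.0, and transcript sequences are from Gencode M21. Alternatives were limma 3.58.1 voom, DESeq2 1.42.0, other scalings, filters and covariates, and each library left out. Summing the 7SL copies, tissue ratios and lengths without shared bases were chosen after seeing the data. In a simulation where 200 genes were given a 2-fold change, edgeR recovered 171 in cortex (20857 genes) and 119 in blood (9977 genes) at the unadjusted cutoff. No libraries were copies of each other, with at least 7.01 chi-square per gene in cortex and 17.0 in blood. Named genes were the members, genes within 1000 bases of them, the gene with the smallest p of each list in cortex (and those under 0.005), and the 3 closest profiles of each member. The result of 1 such gene and the sequence of 1 RNA are not reported here.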

Additional observations from a re-analysis of the deposited data

Results flagged for a closer look

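Dixon's test, which flags about 5% of groups by chance, picked out 2 of 20 groups of libraries. In control blood, Rn7s2 in V22 had 15291 CPM, and its gap to the next library took 0.824 of the range on the log2 scale. V22 was also the only blood library with fewer counts on Rn7s1 than on Rn7s2. Its summed 7SL level of 26271 CPM was the highest in blood, but that value was not picked out. In control cortex, Rpph1 in V14, a male, had 7993 CPM, with a gap of 0.722 of the range. V14 also had the highest Rmrp of the control cortex libraries, at 2300 CPM.

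V2, the control female blood library left out of the comparisons, had 1363 CPM of Rmrp against 84.0 to 195 in the other control blood libraries, and 3564 CPM of Rpph1 against 981 to 1268. Its 7SL copies together had 9604 CPM, below the 13141 to 26271 of the other controls. Its ratio of Rmrp to Rpph1 was 0.382, beside 0.288 to 0.345 in control cortex. In V2 the 10 neuron markers summed to 119 CPM, against at most 10.5 in the other control blood libraries, with 2 of them at 0. The part of brain RNA or of another source in these levels was not tested.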

How the results depend on the processing

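Of 646 alternative values for 86 results, 623 kept their direction, or stayed uncalled, and their side of the threshold. In cortex exposure no member was called, and in blood exposure, where nothing was tested, each member kept its direction, under limma voom, DESeq2, RLE, library totals, both other filters, no RIN covariate, a lane covariate and each library left out. In lane 3 of blood, Rmrp was -0.32 and Rpph1 -0.23, smaller differences than over both lanes. Without single libraries, the blood log2 fold change of Rn7s2 ran from -1.38 to -1.05 and that of the summed copies from -0.98 to -0.75. In cortex it ran from -0.11 to 0.16 for Rn7s2 and from -0.34 to 0.03 for Rn7s1.

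With genes kept at 1 count or more in any library, the cortex interaction passed for Rn7s1 (-0.33), Rn7s2 (-0.73) and Rpph1 (-0.29), and the cortex sex difference for Rn7s1 (-0.39). Of all 32461 genes kept by this filter, 267 passed higher and 112 lower in the interaction by edgeR. In the sex difference 65 passed higher and 100 lower. The log2 values of these members hardly moved and standard errors fell, from 0.26 to 0.09 for Rn7s2, and the cause was not tested. The tissue difference of Rmrp in control libraries passed with DESeq2 and RLE (-0.45 each) and filterByExpr (-0.50), and reversed with library totals (3.92), as did Rpph1 (2.51). In nPM libraries Rpph1 reversed with library totals (2.83). Rmrp there did not pass with DESeq2 and RLE (0.26 each) or the any-library filter (0.20), reversed with filterByExpr (-0.06), and ran from 0.31 to 0.63 when single libraries were left out. It did not pass without 7 of 12 libraries: V9, V11, V13, V20, V1, V3 or V7. A pseudocount of 1 changed no ratio. By mean absolute difference, 12 of 24 closest profiles were shared.

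No paired analysis was possible because the labels give each library its own V number, replicate numbers were assigned in accession order, and no label ties blood to cortex of 1 neonate. Depth did not limit the counted members, whose smallest count was 887. How far identical copies and overlapping genes affected the counts was not tested. The multi-mapping and strand settings that this depends on are not given in the sources used here. No level of Rn7sk and no firm split of Rn7s1 from Rn7s2 is given.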
